A study of Mus musculus with 162 samples.

Results

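The genes described here are 10 whose transcripts are made in large amounts by the acinar cells of the pancreas, an organ that was not among those sampled. They are Cpa1, Cela2a, Cela3b, Pnlip, Prss2, Ctrb1, Cela1, Cel, Reg1 and Dmbt1, and they were taken by symbol from the 53686 rows of the count table. All 10 were found. Of these, 6 are held by textbook knowledge to be restricted to acinar cells (Cpa1, Cela2a, Cela3b, Pnlip, Prss2 and Ctrb1), and the sum of their CPM (counts scaled to the total count of a library) is called the restricted sum. For Pnlip the data limit this name, since it was counted in all 18 OB libraries, where 3 of the other 5 had no count. For Cela2a they limit it too, since it was counted in 15 of 18 liver libraries. It held all 13 restricted counts in the liver library of 22 h replicate 1. In the stomach library of 2 h replicate 2 it held 17 of 23. The other 4 (Cela1, Cel, Reg1 and Dmbt1) are also made in other tissues.

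The libraries came from 18 male C57Bl/6J mice, 8 to 9 weeks old, of which 3 were fed ad libitum (0 h) and 3 each were without food for 2, 8, 12, 18 or 22 h. All were killed early in the dark phase, and no mouse carried a transgene or received a drug. Each mouse gave 9 organs: stomach (STM), liver (LIV), 4 parts of the nervous system and 3 fats. The nervous system was cut into olfactory bulb (OB), cerebellum (CBL), brainstem (BST) and the rest of the brain (BRN, telencephalon with diencephalon). The fats were the interscapular brown one (iBAT), the white one beside the gonads (perigonadal, pgWAT) and the posterior white one under the skin (psWAT). The study left out 5 libraries, which are shown apart here: BRN 8 h replicate 3, BRN 18 h replicate 1, STM 12 h replicate 3, iBAT 22 h replicate 1 and psWAT 22 h replicate 2.

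The retained libraries held 3045845 to 27801717 counts (median 8735554), so that 3 counts, taken as the floor, equal 0.108 to 0.985 CPM, and the 5 left out held 130701 to 4590060. The defining markers of the sampled organs were where the labels put them, but some fat libraries also held those of other tissues. The summed CPM of Snap25 and Syt1, of neurons, was 1508 to 4378 in the retained OB, BRN, CBL and BST libraries, and that of Ucp1 and Cidea, of brown fat, was 3849 to 9920 in iBAT. The chief cell list summed to 70675 CPM or more in each retained STM library. The psWAT library of 12 h replicate 3 held 2922 CPM of the neuron pair and 1300 CPM of a cerebellar pair. The pgWAT library of 18 h replicate 2 held 3989 CPM of the hepatocyte list and 74.8 of the gastric surface list, and an epididymis list (Crisp1, Lcn5, Lcn8 and Defb20) reached 24086 CPM in pgWAT 22 h replicate 2 (median 9.72). Lane and library number are read from the library names of the labels, which name no sequencing run.

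Acinar cells make and store the enzymes that digest food in the gut. Proteins are cut by carboxypeptidases (Cpa1), elastases (Cela1, Cela2a, Cela3b), trypsins (Prss2) and chymotrypsins (Ctrb1), and fats by pancreatic lipase (Pnlip) and the bile salt-activated lipase Cel. Reg1 is a secreted lectin-like protein of the Reg family, and Dmbt1 is a large mucin-like glycoprotein that is also made by the gut lining. Together these messages make up a large share of the RNA of the pancreas.

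The members lie on 7 chromosomes of GRCm38 (Gencode M21): Cel at chr2:28555795-28563403, Cela3b at chr4:137420999-137430540, Cela2a at chr4:141814962-141826160, Cpa1 at chr6:30639218-30645363, Prss2 at chr6:41521787-41525079, Reg1 at chr6:78422711-78428667, Dmbt1 at chr7:131032053-131121630, Ctrb1 at chr8:111686519-111691010, Cela1 at chr15:100674421-100687921 and Pnlip at chr19:58652498-58681788. Counts are over exons of these genes. Cela2a shares part of its span with Ctrc on the same strand, and Prss2 has near copies among the trypsin genes, so reads of these could be split or dropped by the counting of unique reads.

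Because the restricted members ranked the libraries of BRN and of iBAT alike (below), the sequence just before the start of 4 of them is printed, with that of Cela1, which is not a restricted member, beside them. It is the 120 bases before the RefSeq start in GRCm38.p6, 5′ to 3′ on the gene's strand, and RefSeq promoters were at hand for 9 of the 10 members. In acinar cells a factor called PTF1 is known to bind a paired element, and capitals mark its letters CACCTG (or CAGGTG) and TTTCCC (or GGGAAA), searched on both strands.
Ctrb1 (chr8:111691011-111691130, minus strand): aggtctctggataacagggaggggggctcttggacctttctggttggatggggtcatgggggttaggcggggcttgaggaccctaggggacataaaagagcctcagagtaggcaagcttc
Cpa1 (chr6:30639098-30639217, plus strand): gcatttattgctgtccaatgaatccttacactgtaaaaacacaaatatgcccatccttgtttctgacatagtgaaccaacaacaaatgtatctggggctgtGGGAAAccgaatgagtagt
Prss2 (chr6:41521656-41521775, plus strand): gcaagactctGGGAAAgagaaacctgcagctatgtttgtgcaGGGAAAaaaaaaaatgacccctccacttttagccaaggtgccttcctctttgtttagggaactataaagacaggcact
Cela3b (chr4:137430521-137430640, minus strand): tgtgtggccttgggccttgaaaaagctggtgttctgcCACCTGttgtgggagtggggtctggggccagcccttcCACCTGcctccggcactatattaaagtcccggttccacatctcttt
Cela1 (chr15:100687921-100688040, minus strand): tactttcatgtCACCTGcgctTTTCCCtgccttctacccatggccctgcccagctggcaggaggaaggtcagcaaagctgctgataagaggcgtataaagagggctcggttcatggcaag
In Cela1 both motifs stand close together, in Cela3b the first occurs 2 times, and in Ctrb1 neither occurs in the printed stretch. Over 250 bases before the start, CACCTG occurred in 5 of the 9 members (Cel, Cela1, Cela2a, Cela3b and Prss2) and TTTCCC in 7 (all but Cela3b and Pnlip). Among 32851 mouse promoters of that length, 17.2% held the first, 21.9% the second and 3.61% both. A match of letters is a description and not a binding site.

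The restricted sum was highest in BRN, followed by iBAT and STM, by the median over retained libraries. It was 4.49 to 88.4 CPM in BRN (median 21.1, n = 16), 0 to 62.5 in iBAT (median 6.40, n = 17) and 0.551 to 252 in STM (median 2.504, n = 17). In the other organs the medians were 0.875 in LIV (0.228 to 2.11, n = 18), 0.719 in OB (0.191 to 1.76, n = 18), 0.348 in pgWAT (0 to 1.16, n = 18), 0.264 in psWAT (0 to 434, n = 17), 0.223 in BST (0 to 0.562, n = 18) and 0.124 in CBL (0 to 0.771, n = 18). BRN thus lay above OB, CBL and BST without overlap, while the ranges of LIV, OB, pgWAT, BST and CBL overlapped one another. All 6 restricted members were counted in 13 of 16 BRN libraries, 11 of 17 iBAT libraries, 4 of 17 STM libraries, 2 of 17 psWAT libraries, 1 of 18 LIV libraries and none in OB, CBL, BST and pgWAT (0 of 18 each). In 17 retained libraries there was no count of any of the 6. In bulk tissue, fewer cells of a type and less RNA per cell cannot be told apart.

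**Figure D1:**
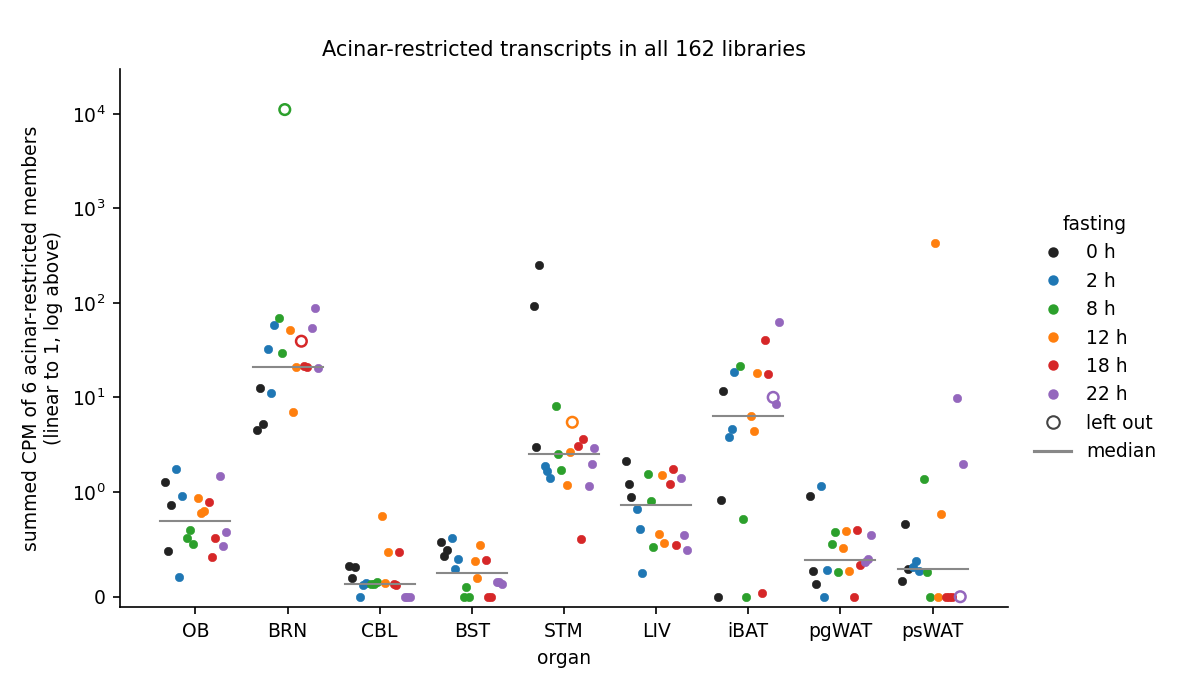
Restricted sum (CPM of Cpa1, Cela2a, Cela3b, Pnlip, Prss2 and Ctrb1 together; axis linear to 1 and logarithmic above) in each library by organ, coloured by hours of fasting, with open circles for the 5 libraries left out and a bar at the median of the retained ones. The retained BRN libraries lie between 4.49 and 88.4 CPM, single STM and psWAT libraries stand far above the others of their organ, and the left-out BRN library of 8 h lies at 11155 CPM.

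Each restricted member had its highest organ median in BRN. For Cela2a the lead was small, with 0.773 CPM in BRN against 0.553 in STM and overlapping ranges of 0 to 4.10 and 0 to 7.81. The other BRN medians were 8.91 CPM for Ctrb1 (1.47 to 38.6), 5.86 for Pnlip (1.59 to 20.6), 3.23 for Cpa1 (0.226 to 9.83), 2.72 for Cela3b (0 to 10.9) and 1.91 for Prss2 (0.163 to 4.75). In iBAT, the next organ for all 5, the medians ran from 0.317 CPM for Prss2 to 2.52 for Ctrb1, and the ranges of the 2 organs overlapped for each of them. OB stood out among the low organs by Pnlip alone, at 0.191 to 1.76 CPM (median 0.650), while Cpa1, Cela3b and Prss2 had no count in any of its 18 libraries, so that the restricted sum of OB is nearly all Pnlip. In the 3 fed BRN libraries Pnlip had 19, 29 and 23 of the 43, 77 and 46 restricted counts.

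The 4 members that other tissues also make had another order of organs. Cela1, an elastase, was counted in every retained library, at a median of 46.6 CPM in STM (9.19 to 287), 22.8 in LIV (16.2 to 30.4), 18.2 in pgWAT (13.3 to 46.6), 8.75 in BRN (3.86 to 22.2), 8.58 in BST (6.62 to 12.3), 4.03 in iBAT (1.12 to 17.1), 3.92 in OB (2.47 to 6.32), 3.42 in psWAT (1.15 to 101.4) and 1.77 in CBL (0.843 to 3.44). Neighbours in this order overlapped. Cel had a median of 19.1 CPM in STM (1.51 to 30.3) and of at most 0.444 elsewhere, in BRN. Dmbt1 had a median of 77.6 CPM in STM (21.7 to 267) and of at most 0.829 elsewhere, again in BRN. Reg1 had medians of 0.558 CPM in BRN (0 to 2.38), 0.508 in STM (0 to 64.5) and 0.291 in iBAT (0 to 1.58), which do not differ beyond their spread, and of 0 in the other 6 organs.

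**Figure D2:**
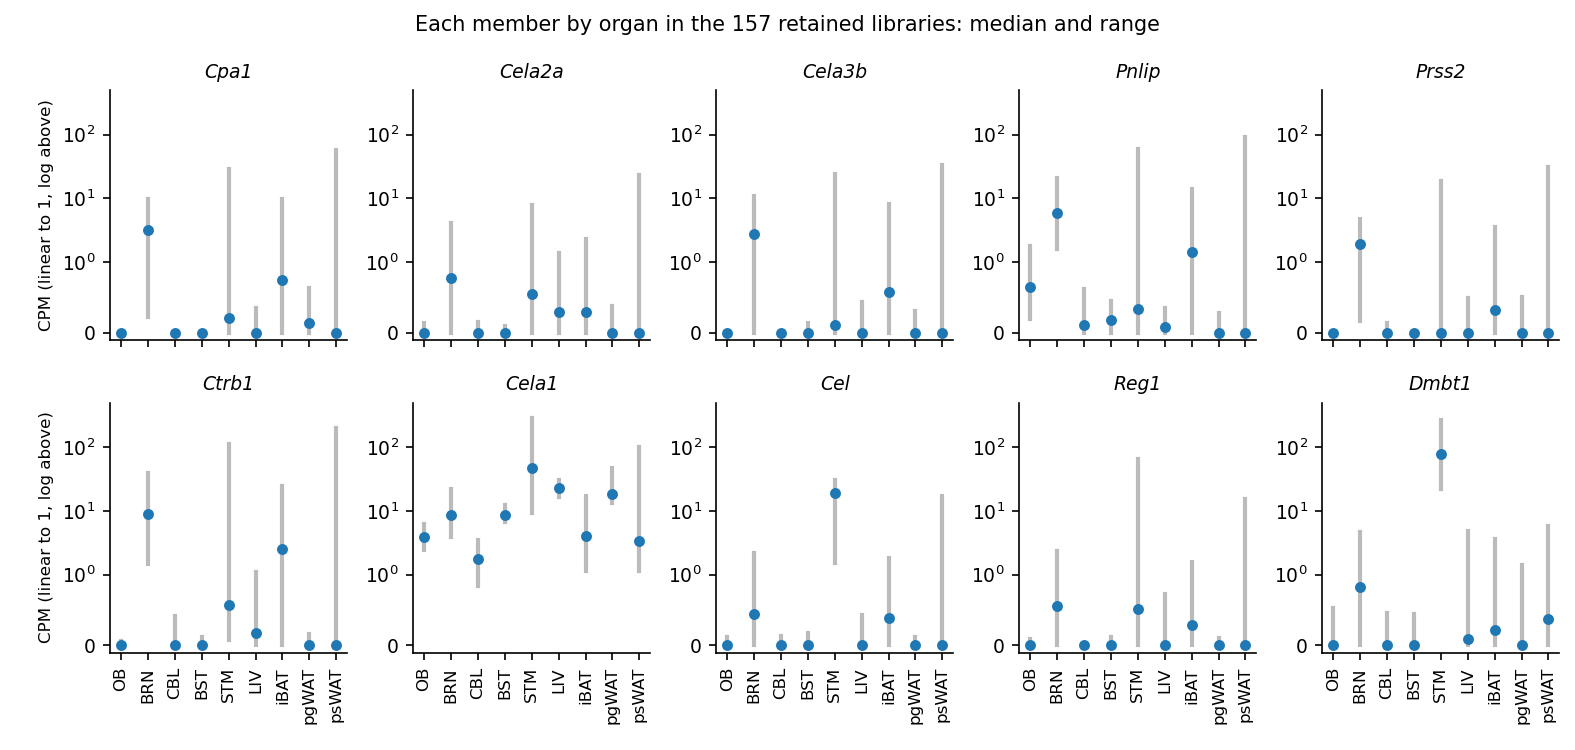
Median (point) and range (line) of each member in CPM by organ over the retained libraries, one panel per gene, on an axis linear to 1 and logarithmic above. The 6 restricted members peak in BRN by median, while Cel and Dmbt1 peak in STM at 19.1 and 77.6 CPM and Cela1 is counted in all 9 organs.

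In BRN the restricted sum was spread widely within time points. It was 4.49, 12.5 and 5.19 CPM at 0 h (replicates 1 to 3), 32.2, 11.1 and 58.6 at 2 h, 69.02 and 29.6 at 8 h, 51.1, 6.98 and 20.9 at 12 h, 21.3 and 20.9 at 18 h, and 54.3, 88.4 and 20.4 at 22 h. The 3 fed mice were low, but the libraries of 2 h replicate 2 and 12 h replicate 2 lay among them. The left-out library of 8 h replicate 3 held 1458 restricted counts of 130701 in all, or 11155 CPM (95% exact Poisson interval 10590 to 11743). The left-out library of 18 h replicate 1 held 11 such counts, or 39.3 CPM (19.6 to 70.3), within the range of the retained ones. These intervals cover counting error only.

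The comparison of BRN with the other 3 parts of the nervous system, added after the values had been seen, asks how far the members exceed the level in tissue of like kind. All 10 members were higher in BRN than in OB, CBL and BST together (edgeR quasi-likelihood test, adjusted p under 0.05 and a log2 fold change (log2FC) over 1, a call that 12.2% of the 22113 genes tested received). Ctrb1 was higher by a fitted log2FC of 8.56 (SE 0.68, adjusted p 9.72e-24) and Pnlip by 4.86 (SE 0.51, adjusted p 5.62e-16). As Ctrb1 had 14 counts in the 54 libraries of the other regions and Pnlip 227, means under the floor, the size of these folds is uncertain. Cela1, which the other 3 regions also hold, was higher by 1.53 (SE 0.27, adjusted p 1.81e-07). Cpa1 had 489 counts in the 16 BRN libraries and 0 in the 54 others. Set against a floor of 3 counts in the shallowest of these, it was at least 8.42-fold higher. Cela3b and Prss2 had 1 count each in the 54 libraries and Reg1 had 2, against 487, 245 and 96 in BRN.

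Other acinar genes, from a list of 34 that holds none of the members, went the same way. Of the 25 tested, 22 were called and all 22 were higher in BRN, with a median log2FC of 3.61 (2.91 with Try4, Try5 and Sycn, which had no count in OB, CBL and BST, at their bound, and without Try10, at 2 counts against 0), beside -0.05 over all genes tested. The BRN medians were 3.82 CPM for Clps, the cofactor of pancreatic lipase, and 3.33 for Ctrl, a chymotrypsin-like protease. Markers of the pancreatic islets were low in retained BRN libraries, with a median of 0.589 CPM for the insulin gene Ins2 (highest 1.86) and 0.145 for Ins1, while Sst, which neurons also make, had a median of 164.1. In the left-out library of 8 h Ins2 was at 176 CPM and Ins1 at 84.2, and the neuron pair was at 842 CPM. The part of any of these cells in the result was not tested.

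In iBAT the restricted sum was low in 1 lane of sequencing and higher in the others. The restricted sum was 0, 0.925 and 11.7 CPM at 0 h, 3.76, 4.596 and 18.5 at 2 h, 21.2, 0.743 and 0 at 8 h, 6.40, 4.42 and 18.0 at 12 h, 0.0360, 40.4 and 17.6 at 18 h, and 8.55 and 62.5 at 22 h, where the left-out replicate 1 had 10.0. The 5 libraries of lane 8 (0 h replicates 1 and 2, 8 h replicates 2 and 3, 18 h replicate 1) were at 0 to 0.925 CPM (median 0.0360) from 15140655 to 27801717 counts. The other 12 retained libraries, of lanes 1 to 5, were at 3.76 to 62.5 CPM (median 14.7). These 2 sets of libraries did not overlap. The other 4 members did overlap between them, with Cela1 at 1.12 to 5.14 CPM in lane 8 and 1.60 to 17.1 in the other lanes, Cel at 0 to 0.198 and 0 to 1.81, Reg1 at 0 to 0.0660 and 0 to 1.58, and Dmbt1 at 0 to 3.59 and 0 to 0.860.

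The 5 lane 8 libraries bear the highest library numbers, apart from the others. The remaining iBAT libraries and those of BRN bear numbers between 1 and 89 and lanes 1 to 5, as do those of OB and LIV and the 8 STM libraries of lane 5, and they fall in 2 number series. Within BRN the sum was 4.49 CPM in lane 5 (1 library), 12.5 and 20.9 in lane 3, 5.19 to 39.3 in lane 1, 11.1 to 69.02 in lane 4, and 29.6 to 11155 in lane 2, the left-out libraries included. Lane 2 also held the iBAT library at 40.4 CPM. Libraries of OB, CBL, BST, LIV and pgWAT bear some of the same lane numbers with sums of at most 2.11 CPM, and in lane 5 the sum ran from 1.40 to 252 CPM in STM and from 0 to 434 in psWAT, but as the labels name no run, a shared lane number is not known to be a shared lane. The part of lane, library preparation or dissection was not tested and cannot be told apart with these labels.

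**Figure D3:**
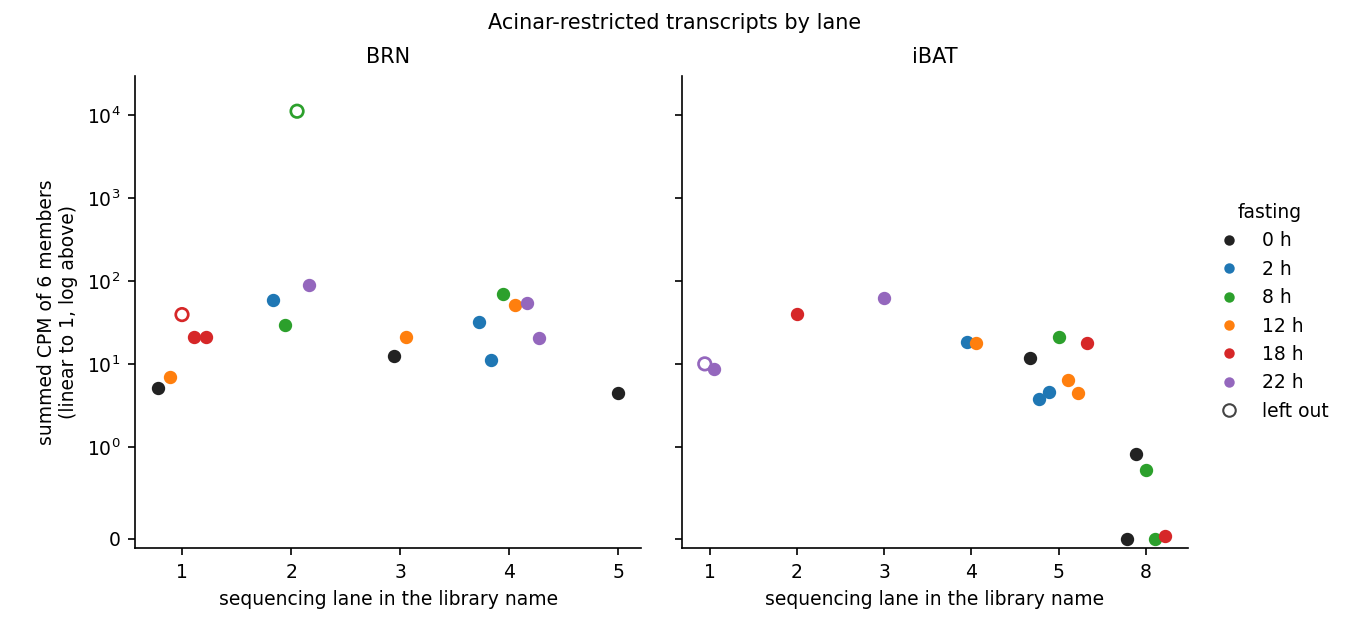
Restricted sum (CPM, axis linear to 1 and logarithmic above) by the lane in the library name, in BRN (left) and iBAT (right), with each library as a point coloured by hours of fasting and open circles for libraries left out. The 5 iBAT libraries of lane 8 lie at or below 0.925 CPM and the other iBAT libraries at or above 3.76.

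Depth did not order the BRN libraries. Across the 16 retained ones Spearman's rho between the restricted sum in CPM and the total count was 0.026, given as a description. Across the 17 of iBAT it was -0.673, and -0.027 over the 13 libraries of lanes 1 to 5 with the left-out one included. The restricted counts themselves varied in BRN with a coefficient of variation of 92.9% (79.6% in CPM).

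Compared with the white fats, iBAT was higher in 8 of 10 members, a call that 14.2% of all genes received. With DESeq2 5 members were called, and 5 to 9 with replicates left out. This comparison, too, was added after the values had been seen. It sets iBAT against the mean of the pgWAT and psWAT levels on the log scale, and Ctrb1 was higher by a log2FC of 3.66 (SE 0.73, adjusted p 3.61e-06). On the plain scale its mean of 5.19 CPM in iBAT was not above that of 5.77 over the white fat libraries, which rests on 1 psWAT library described below. Cela1 was lower in iBAT by a log2FC of -0.87 (SE 0.30, adjusted p 0.00721), short of the fold threshold, and Dmbt1 was not called (log2FC 0.90, SE 0.55, adjusted p 0.133). With iBAT held to its 5 lane 8 libraries, no member was called higher, 8 of the log2FC changed sign, and Cela1 was called lower (log2FC -1.93, SE 0.53, adjusted p 9.66e-04). Of the 25 other acinar genes tested 12 were higher and 4 lower (median log2FC 1.03, beside -0.30 over all genes). The 14.2% above is the share of all genes called higher, and that called lower is not given, so the 4 have no reference. The same lane 8 library of 8 h replicate 2 that held 3.59 CPM of Dmbt1, the highest in iBAT, held 246 CPM of the gastric surface list (Gkn1 at 88.5, Gkn2 at 87.5 and Tff1 at 55.4) and 36.02 of the chief cell list.

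Where the 6 restricted members were counted at least 50 times, their shares of the 6-gene count had like medians in BRN and iBAT. There were 26 such retained libraries (13 of BRN, 8 of iBAT, 3 of STM and 2 of psWAT) and the left-out BRN library of 8 h. Of the 6-gene count, which is not corrected for gene length, Ctrb1 made up a median of 39.9% (SD 7.09) over the retained libraries, Pnlip 22.7%, Cpa1 13.3%, Cela3b 11.0%, Prss2 6.51% and Cela2a 4.199%. The median Ctrb1 share was 40.3% in BRN and 38.5% in iBAT, and that of Pnlip 22.4% and 24.2%. The left-out BRN library, with the highest restricted sum, had 43.2% Ctrb1, 23.2% Pnlip, 13.2% Cpa1, 11.9% Cela3b, 5.49% Prss2 and 3.02% Cela2a.

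The shares varied widely between single libraries, from 25.5% to 62.03% for Ctrb1, 5.46% to 49.2% for Pnlip, 1.32% to 21.8% for Cela3b and 1.299% to 20% for Prss2. STM 0 h replicate 1 had the highest Ctrb1 share, 62.03% of 698 counts, with Pnlip at 8.31%, while STM 0 h replicate 3 had 44.5% and 23.9% of 2031 counts. BRN 18 h replicate 2 had Pnlip at 49.2%. STM 8 h replicate 1, with 76 counts, had Cela2a at 15.8% and Cela3b at 1.32%, and psWAT 22 h replicate 1, with 55, had Prss2 at 20% and Pnlip at 5.46%. The psWAT library of 12 h replicate 1, with 3036 counts, had 45.6% Ctrb1, 20.9% Pnlip and 13.0% Cpa1. With the limit lowered to 20 counts, the medians in BRN and iBAT stayed near these, but single libraries of other organs were unlike them: Cela2a reached 73.9% in STM, the 1 OB library held Pnlip alone and the 1 pgWAT library had Prss2 at 43.5%.

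**Figure D4:**
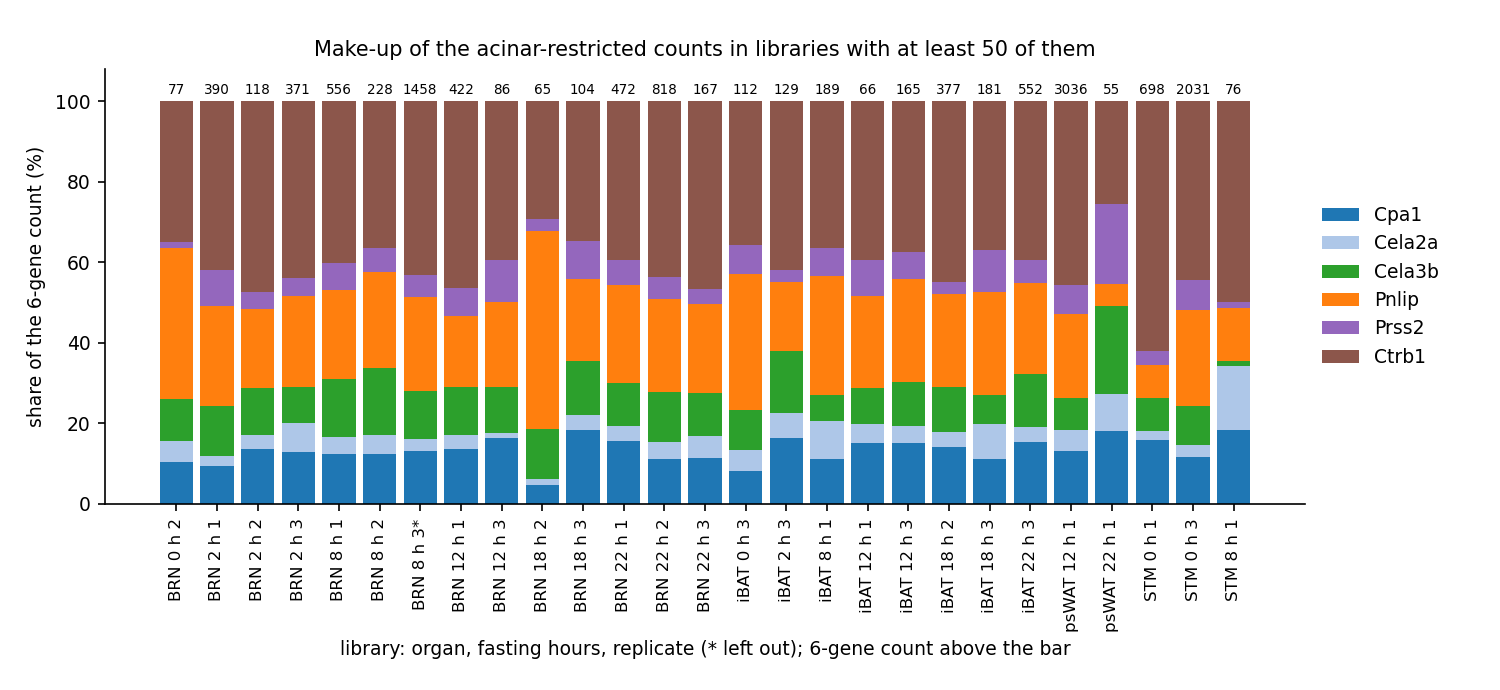
Share of each of the 6 restricted members in their summed count (stacked bars, %) in the 27 libraries with at least 50 such counts, named by organ, hours and replicate, with the 6-gene count above each bar and a star for the library left out. Ctrb1 is the largest share in most libraries, at a median of 39.9%, with 62.03% in STM 0 h replicate 1.

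The restricted members also ranked the libraries alike. Over pairs of them Spearman's rho of CPM was 0.768 to 0.944 (median 0.903) across the 16 BRN libraries and 0.74 to 0.98 (median 0.914) across the 17 of iBAT, but 0.139 to 0.783 (median 0.446) across the 17 of STM, where most counts were near the floor. Points that share a library share its depth, so these are descriptions. The 17 of iBAT include the 5 libraries of lane 8, all below the other 12 in restricted sum. This split enters the values of iBAT here, which are not given without lane 8. The genes outside the members whose log2 level across BRN libraries was most like the restricted sum (Pearson's r) were 2210010C04Rik, a trypsinogen (0.977), Pnliprp1, a lipase-like protein (0.971), Clps (0.953), Try5, another trypsinogen (0.914), and Stk16 (0.896). In iBAT they were 2210010C04Rik (0.938), Cpb1 (0.909), Rnase1 (0.909), Try4 (0.90) and Zg16 (0.899). All 9 genes of the acinar list that could be ranked were among the top 50 there, against 8 of 15 in BRN and 3 of 20 in STM. The genes ranked were those that passed the filter on low counts, 14521 in iBAT, 16739 in BRN and 16273 in STM. In STM they were 2210010C04Rik (0.885), 2310039H08Rik (0.848), the zymogen granule gene Sycn (0.848), Mrps34 (0.828) and Rpl32l (0.817). This order includes the 2 high libraries of 0 h and is not given without them. In pgWAT, with at most 23 restricted counts in a library, the closest gene was 4833422C13Rik (0.694) and none of the top 10 was of the acinar list.

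STM held 2 libraries far above its others. The restricted sum was 92.2, 2.99 and 252 CPM at 0 h, 1.86, 1.67 and 1.40 at 2 h, 8.09, 2.504 and 1.70 at 8 h, 1.19 and 2.61 at 12 h (5.45 in the left-out replicate 3), 3.06, 0.551 and 3.58 at 18 h and 1.15, 1.95 and 2.92 at 22 h. Without 0 h replicates 1 and 3, the other 15 libraries lay between 0.551 and 8.09 CPM (median 1.95). In 0 h replicate 3 Ctrb1 was at 111.9 CPM, Pnlip at 60.1, Cpa1 at 29.1, Cela3b at 24.3, Prss2 at 18.5 and Cela2a at 7.81, and in replicate 1 Ctrb1 was at 57.2, Cpa1 at 14.5 and Pnlip at 7.66. In replicate 2, from the third fed mouse, no restricted member was above 1.33 CPM.

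The same 2 libraries were the ones with insulin transcripts. Ins2 was at 14.4 and 20.6 CPM in them and at 0 in replicate 2, and no other STM library had more than 0.145. The amylase genes Amy2a2 to Amy2a5, near-identical copies among which reads may be split, were at 19.3 to 21.2 CPM in replicate 3 but at 0.264 to 1.85 in replicate 1. Alb, made by hepatocytes, was at 44.3 and 339 CPM in the 2 libraries and at 2.65 in replicate 2, though STM 12 h replicate 2, with 2.61 CPM of the restricted members, held 780. In the BRN libraries of the same 2 mice the restricted sum was 4.49 and 5.19 CPM, the lowest of that organ. The part of adjoining pancreas was not tested.

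Across the 6 time points of STM, Cpa1, Pnlip, Cela2a and Reg1 passed the filter on low counts only through 0 h replicates 1 and 3, the libraries in which most of them were high, so no test of them is given, and Cela3b and Prss2 were under the filter. Cpa1 was at 14.5, 0.332 and 29.1 CPM at 0 h and at no more than 1.49 in any fasted library. Of the 4 members that passed without those libraries, Ctrb1 (adjusted p 0.0129) and Cela1 (0.0324; edgeR joint test of the 5 fasting times) were called and Dmbt1 (0.0953) and Cel (0.396) were not. Such calls were made for 6.55% of all genes tested in STM. The call of Cela1 was lost without 0 h replicate 1 or 3, any of the 2 h libraries, 12 h replicate 2, or 18 h replicate 1 or 3, and that of Ctrb1 without 18 h replicate 1. Without STM 0 h replicates 1 and 3 together, which leaves 1 fed library whose spread is taken from the other times, none of the 4 was called, with adjusted p of 0.105 for Cela1 and 0.661 for Ctrb1. Of the acinar list 5 of 20 genes tested were called with those libraries. Fewer genes of the list passed the filter without them, and the count supports nothing for genes that passed only through them.

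At 18 h, 4.77% of genes were called lower than at 0 h. Ctrb1 fell by 5.39 on the log2 scale (SE 1.36, adjusted p 0.0236). Its 18 h libraries held 1.33, 0.550 and 2.95 CPM against 57.2, 1.33 and 111.9 at 0 h, so that the groups overlapped through the fed replicate 2. The call was lost without STM 0 h replicate 3 or any 1 of the 18 h libraries. Without 0 h replicates 1 and 3 Ctrb1 was higher by a log2FC of 0.28 (SE 1.42, adjusted p 0.949) and Cela1 lower by -2.95 (SE 0.86, adjusted p 0.182). At 2, 8 and 12 h no member and no gene at all was called (0.00% each by edgeR, with 1054, 361 and 1257 genes at an unadjusted p under 0.05 and 2, 0 and 16 called by DESeq2, among them Ctrb1 at 2 h and 12 h), and at 22 h no member was, beside 0.0491% of genes called lower; Ctrb1 had an adjusted p of 0.0602 there.

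Cela1 and Dmbt1, which were counted in every STM library, were called lower by edgeR at 18 h and at no other time (DESeq2 also called Cela1 at 22 h, adjusted p 0.00769). Cela1 was at 137.7, 119.1 and 287 CPM at 0 h, 154.9, 126.3 and 94.7 at 2 h, 176, 26.3 and 46.6 at 8 h, 32.5 and 25.02 at 12 h (14.4 in the left-out replicate 3), 9.19, 25.5 and 11.9 at 18 h and 52.3, 20.5 and 19.8 at 22 h. All 0 h and 2 h libraries were above all of 12, 18 and 22 h. At 18 h Cela1 had fallen by 3.79 on the log2 scale (SE 0.74, adjusted p 0.00899). With replicates left out, the STM contrasts with 0 h gave 0 to 12 calls of members, so this call was not kept in all of these fits. Dmbt1 was at 165.9, 168.3 and 138.8 CPM at 0 h and at 28.6, 61.7 and 27.9 at 18 h, which do not overlap, and fell by 2.19 (SE 0.65, adjusted p 0.0414), a call lost without any 1 of the 0 h or 2 h libraries, 18 h replicate 1 or 18 h replicate 3.

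Beside these genes the summed CPM of 5 enterocyte markers (Fabp2, Alpi, Lct, Sis and Vil1) was 112.6, 179 and 142.1 at 0 h, 20.4, 53.0 and 16.1 at 18 h and 68.3, 16.0 and 25.2 at 22 h. Vil1, Fabp2 and Alpi made up most of it, Sis was at 0 in all but 2 STM libraries, and Lct had its highest value, 2.93 CPM, at 18 h. All 8 libraries of 0 h, of 2 h and of 8 h replicates 1 and 2 were in lane 5, with Cela1 at 26.3 to 287 CPM (median 131.98), Dmbt1 at 48.5 to 267 (median 169.4) and the enterocyte markers at 25.98 to 281 (median 134.2). The 9 retained libraries of lane 6 held the later ones, with Cela1 at 9.19 to 52.3 (median 25.02), Dmbt1 at 21.7 to 101.3 (median 35.1) and the enterocyte markers at 16.0 to 68.3 (median 27.5). Lane and time cannot be told apart here outside 8 h, whose lane 5 libraries had Cela1 at 176 and 26.3 CPM and whose lane 6 library had 46.6. With lane as a covariate, the log2FC of Cela1 at 18 h was -2.65 (SE 1.15, adjusted p 0.588) and that of Dmbt1 -1.41 (SE 1.12, adjusted p 0.748), and no member was called. That fit called no gene at all at 18 h or 22 h, so the lost calls are not particular to the members.

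No change over time was called for Cel, and none is tested here for Reg1. Cel was at 13.3, 20.1 and 21.3 CPM at 0 h and 9.72, 1.51 and 6.64 at 18 h, and its log2FC of -1.82 was not called (adjusted p 0.124). Reg1 was at 0.925, 11.2 and 3.84 CPM at 0 h and 64.5, 0.508 and 1.05 at 2 h, and at no more than 0.958 in any later library. The 2 h replicate 1 library with the highest Reg1 also held the enterocyte markers at 281 CPM, Alpi at 98.6 and Sis at 6.38 among them, while its restricted sum was 1.86 CPM. The part of gut lining was not tested.

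**Figure D5:**
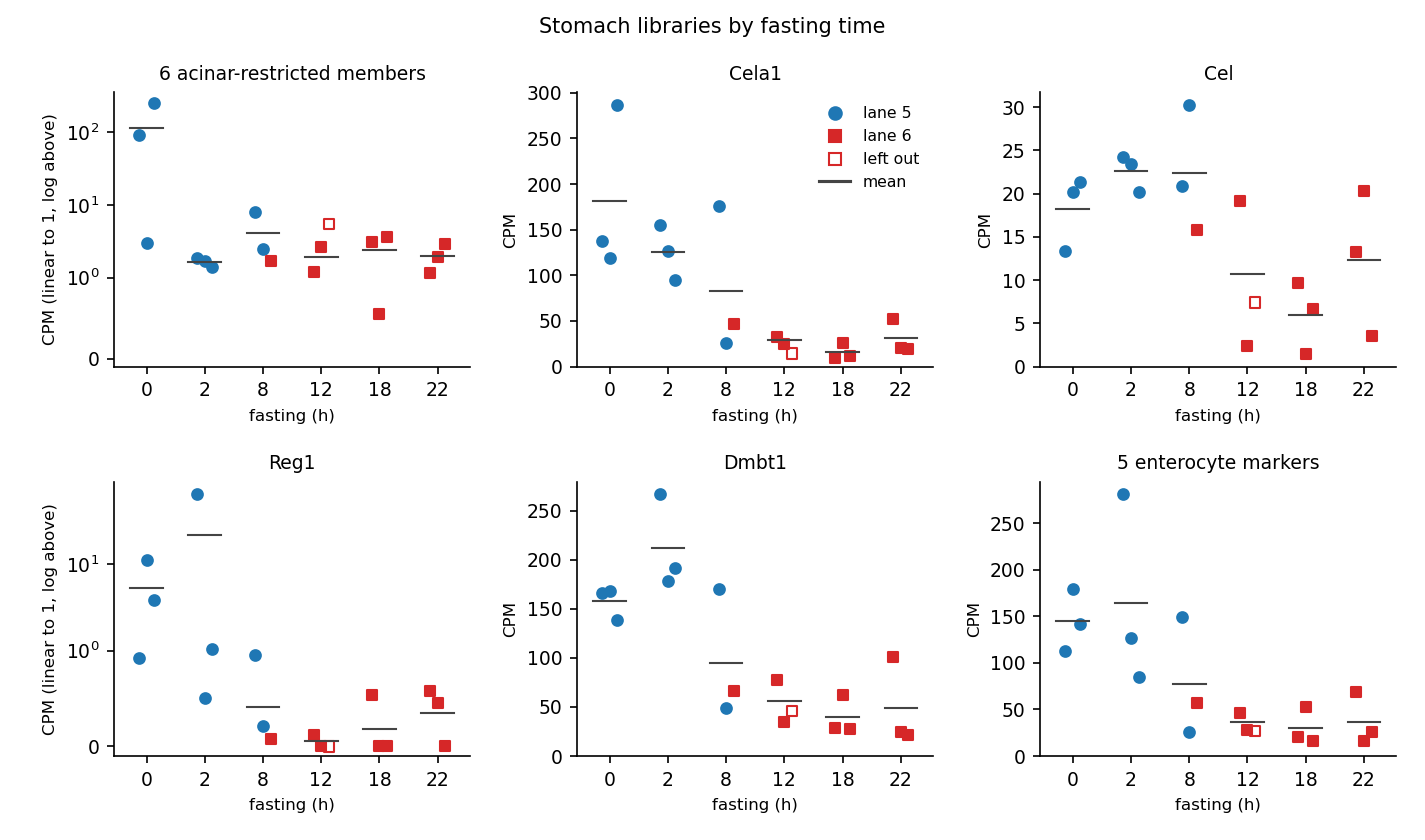
Restricted sum, Cela1, Cel, Reg1, Dmbt1 and the enterocyte marker sum (CPM; the panels of the restricted sum and Reg1 are linear to 1 and logarithmic above) in each STM library by hours of fasting, with circles for lane 5, squares for lane 6, an open square for the library left out and a bar at the mean of the retained ones. The restricted sum is high in 2 of 3 libraries at 0 h (92.2 and 252 CPM), while Cela1, Dmbt1 and the enterocyte markers have lower medians in lane 6, which holds the later times.

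All 10 members were higher in STM than in the mean of the other 8 organs, as were 20.5% of all genes. By this fit Dmbt1, Cel and Reg1 stood highest: Dmbt1 by a log2FC of 8.75 (SE 0.24), Cel by 7.41 (SE 0.27), and Reg1 by 6.01 (SE 0.39). The value of Reg1 leans on STM 2 h replicate 1, at 64.5 CPM against at most 11.2 in any other STM library, and was 4.94 (SE 0.45) without replicate 1 of every group, while by median Reg1 did not differ between STM and BRN beyond the spread. Ctrb1 followed at 5.22 (SE 0.45), and Cela1, at 3.57 (SE 0.19, adjusted p 2.16e-41), lay below 4 of the restricted members. The values of Dmbt1, Cel, Reg1 and Cela1 were little changed without STM 0 h replicates 1 and 3, but only 6 of 10 members were then called. Cela2a and Ctrb1 were among them, at 2.05 and 1.60, while Cpa1 (0.70), Cela3b (0.10), Pnlip (-0.10) and Prss2 (-1.04) were not. Of the acinar list 21 of 25 were higher (median log2FC 5.55, beside -0.12 over all genes), led by genes the stomach itself makes: Clps had a median of 38292 CPM there and Pla2g1b, a secreted phospholipase, of 20100.

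In LIV the members were near the floor except for Cela1 and, in 5 libraries, Dmbt1. Cela1 was at 16.2 to 30.4 CPM in all 18 libraries and higher than in the mean of the other organs by a log2FC of 2.01 (SE 0.20, adjusted p 1.43e-17). On this scale, which averages the logs of 8 organs, Dmbt1 (log2FC 1.96, SE 0.39) and Cela2a (1.74, SE 0.44) were also called higher and Pnlip lower (-2.64, SE 0.86), where 21.4% of genes were called higher and 30.3% lower. The plain mean of Dmbt1 was 1.21 CPM in LIV against 13.1 over the other libraries, of which STM holds nearly all, and that of Cela2a was 0.379 against 0.548. Dmbt1 in LIV was at 3.15 to 4.91 CPM in the 3 fed mice and at 0 to 0.575 in all fasted ones but 2, 12 h replicate 1 (4.53) and 22 h replicate 3 (4.34). The joint test over time did not call it (adjusted p 0.145) or Cela1 (0.295), while 16.0% of LIV genes were called.

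The 2 white fats were both near 0 for the restricted members with 1 exception. The psWAT library of 12 h replicate 1 held 198 CPM of Ctrb1, 91.0 of Pnlip, 56.5 of Cpa1, 33.8 of Cela3b, 31.5 of Prss2 and 23.5 of Cela2a, and also 101.4 of Cela1, 16.9 of Cel, 15.5 of Reg1 and 5.72 of Dmbt1. The other 16 retained psWAT libraries had a restricted sum of 0 to 9.73 CPM (median 0.256), the highest in 22 h replicate 1 from 55 counts. Both of these libraries were among the 3 of psWAT in the library number series that also holds BRN at 22 h, of which the other one, 12 h replicate 3, was at 0.786 CPM, while the other libraries of psWAT reached at most 1.95. In 12 h replicate 1 the acinar list was also high, with Clps at 52.1 CPM, Cpb1 at 37.9 and Ctrl at 31.9, while Ins2 was at 2.00. The part of another tissue in these libraries was not tested.

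Between the 2 depots, 9 members were lower in pgWAT, which lies inside the abdomen, than in psWAT under the skin, and Cela1 was higher (log2FC 1.31, SE 0.33, adjusted p 2.04e-04), where 24.7% of genes were called lower and 19.7% higher. The 9 calls rest on 1 library. Without psWAT 12 h replicate 1, Cela1 was the sole member called, at a log2FC of 2.35, and Cpa1 turned to 0.92. Of the acinar list with that library kept, 18 of 25 were lower and 1 higher (median log2FC -3.28, or -2.87 with genes at their bound, beside -0.03). The 1 higher gene was Cuzd1, which reached 1373 CPM in pgWAT 18 h replicate 3. That library also had the highest pgWAT values of the epididymis genes Lcn8 (11406 CPM), Defb20 (3776) and Lcn5 (3466), whose part in the result was not tested.

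Outside STM the joint test over fasting time called 1 member in 1 organ. Cela1 in iBAT had an adjusted p of 0.0472, in an organ where 29% of genes were called and where time points differ in how many libraries came from lane 8. The other 7 members tested in iBAT had adjusted p of 0.430 to 0.935. In BRN all 10 members were tested and none was called (adjusted p 0.180 to 0.577, with Cpa1, Cela3b, Prss2 and Ctrb1 at an unadjusted p under 0.05), where 1 gene in all was called by edgeR (0.00597%) and 1577 by DESeq2. In OB (15.3% of genes called), CBL (2.99%), BST (0.107%), pgWAT (0.00%) and psWAT (0.00%) only Cela1, and in OB also Pnlip, passed the filter, and neither was called. In pgWAT and psWAT 1694 and 3192 genes had an unadjusted p under 0.05, and DESeq2 called 550 and 2053.

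In BRN the fasted groups were also set against 0 h one by one, a comparison added after the values had been seen. At 22 h 4 of the 10 members were higher, a call that 2.95% of genes received: Ctrb1 by a log2FC of 3.48 (SE 0.80, adjusted p 0.0250), Cela3b by 3.67 (SE 0.91, adjusted p 0.0269), Cpa1 by 3.80 (SE 0.96, adjusted p 0.0285) and Prss2 by 3.78 (SE 1.008, adjusted p 0.0339). Ctrb1 was at 1.77, 4.39 and 1.47 CPM at 0 h and at 21.4, 38.6 and 9.55 at 22 h, which do not overlap. Cela3b was at 0, 1.301 and 0.564 CPM and at 5.87, 10.9 and 2.20, which do not overlap either. At 2 and 8 h no gene was called (0.00% each by edgeR, with 755 and 2796 genes at an unadjusted p under 0.05 and 0 and 491 called by DESeq2), and at 12 and 18 h no member was, beside 2.30% and 1.47% of genes called higher.

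All 3 fed BRN libraries were of 1 library number series, and all 3 of 22 h were of another. With series or with lane as a covariate no gene at all was called at 22 h, and so no member. The same held when 1 of the 0 h libraries, 22 h replicate 1 or 22 h replicate 2 was left out. It also held with the left-out BRN libraries included. The loss is thus not particular to the members. Without 22 h replicate 3, 8 members were called, beside 1803 of 16638 genes in both directions. The main fit called 617 of 16749 genes at 22 h. The series of the fed libraries also held libraries of 2, 8 and 12 h, and its restricted sums ran from 4.49 to 11155 CPM (median 16.7). Those of the other series ran from 6.98 to 88.4 CPM (median 30.9), the left-out libraries included in both. Time and series are confounded for 22 h against 0 h, and their parts cannot be told apart.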

How the data were processed

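Poly(A)-selected RNA of 9 organs of 18 mice was sequenced in 162 libraries. The authors aligned read pairs with TopHat2 2.1.1 to GRCm38.p5, kept reads that mapped once, counted them over exons with HTSeq 0.9.1, and deposited raw counts per gene, neither normalized nor filtered. RNA of the white fats was extracted with another kit than that of the other organs. Each of the 162 columns was matched to a sample by its library name.

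CPM here is a count over the library's total count. The 5 libraries that the study left out enter no main test, and were included only in an alternative fit. Tests used edgeR 4.0.16 in R 4.3.3 (TMM factors, robust quasi-likelihood, limma 3.58.1) on genes that reached, in at least 3 libraries, the CPM of 10 counts at the median library size. One fit per organ gave the time contrasts, and one fit over all organs the organ contrasts, which compare means of logs. P-values were adjusted over all genes (Benjamini-Hochberg), and calls needed an adjusted p under 0.05 and, outside joint tests, an absolute log2FC over 1. DESeq2 1.42.0, other size factors, no filter, blocks, covariates and left-out libraries were alternatives. Code was tested on simulated data.

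The 3 mice of a time point are separate animals, and in the time contrasts each p measures the spread between them. The organ contrasts pool the times of an organ, with no term for time or mouse. Each p there measures the spread between the libraries of an organ, with differences of time, lane and series in it. The same 18 mice gave all organs, and the main organ fit takes their libraries as independent. The members, gene lists and comparisons were chosen with earlier results of these data known. The comparisons of BRN with OB, CBL and BST, of iBAT with the white fats, and of BRN times with 0 h, and the covariates and the libraries left out of them, were chosen after seeing the values. Named genes were the members, the genes of the marker lists with the 3 highest medians or maxima of an organ (some are not reported here), and the 10 genes most like the restricted sum (Pearson's r of log2 (CPM + 0.5)) in STM and pgWAT. The same in BRN and iBAT, and Ins1, Ins2, the amylases, Alb and the enterocyte and gastric markers in single libraries, were named after seeing their values. Intervals are exact (Poisson for counts, 95%). Python 3.11.15, pandas 2.3.3, scipy 1.17.1 and matplotlib 3.10.9 made tables and figures.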

Additional observations from a re-analysis of the deposited data

Results flagged for a closer look

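The left-out BRN library of 8 h replicate 3 held the restricted members at 11155 CPM and the left-out BRN library of 18 h replicate 1 at 39.3 CPM. Both were noted because they enter no main comparison and lie above the highest fed BRN library, at 12.5 CPM. The second value rests on 11 counts and lies within the range of the retained fasted libraries, while the first lies beyond every other library of the series. The islet gene Ins2 was at 176 CPM in the first. No cause was tested.

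For some members the ranges of a fasting time and 0 h did not overlap and lay in opposite order in STM and BRN, with every STM library below the fed ones and every BRN library above them. The difference between the 2 organs was not tested in any of these cases, and at 2 and 8 h edgeR called no gene in either organ. For Prss2, which was under the filter in STM, this rests on 0 or 1 count against 1 count in STM 0 h replicate 2 (0.111 CPM, under the floor of 3 counts). For Cpa1 it rests on 0 to 2 counts against 3 in that library. For the restricted sum at 22 h it rests on 20 counts in STM 22 h replicate 3 against 27 in STM 0 h replicate 2. How many of all genes separate in this way was not counted. At 2 h the medians in STM and BRN were 0 and 3.06 CPM for Cpa1, 0 and 2.68 for Prss2, and 0.263 and 13.5 for Ctrb1. At 8 h they were 0 and 3.20 for Prss2. At 18 h they were 11.9 and 11.1 for Cela1 and 28.6 and 2.70 for Dmbt1. At 22 h they were 0 and 8.52 for Cpa1, 0 and 3.45 for Prss2, 0.574 and 21.4 for Ctrb1, 24.04 and 0.973 for Dmbt1, and 1.95 and 54.3 for the restricted sum. In STM, lane follows time, and in BRN all fed libraries share a library number series, as given above.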

How the results depend on the processing

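Of the 10 members, the count higher in BRN than in OB, CBL and BST was 10 under every alternative run (120 of 120 single values kept direction and call), and the 4 LIV calls kept theirs in 48 of 48. In STM the joint test called 4 members, 7 with DESeq2, 7 with no filter on low counts, 0 with lane as a covariate, 0 without STM 0 h replicates 1 and 3, and 0 to 5 with single replicates left out. The STM contrasts with 0 h gave 6 calls, 13 with DESeq2, 0 with lane as a covariate, 0 without STM 0 h replicates 1 and 3 (where Ctrb1 turned to 0.28) and 0 to 12 with replicates left out. Both STM counts include members that passed the filter only through those 2 libraries (Cpa1 and Pnlip in each, and Cela2a at 18 h) and support nothing for them. Counts for contrasts with 0 h are sums over the 5 fasting times. At 18 h in STM 1419 of 16281 genes were called, 1848 with DESeq2 and none with lane as a covariate. In the other organs the joint test gave 1 call, 5 with DESeq2, 6 with no filter, 3 with the 5 left-out libraries included and 0 to 1 with replicates left out. The BRN contrasts with 0 h, also summed over the 5 times, gave 4, 8 with DESeq2, 20 with no filter, 0 with lane, 0 with library series and 0 to 15 with replicates left out. At 22 h in BRN 617 of 16749 genes were called, 1018 with DESeq2 and 1077 of 28784 with no filter. No gene was called there with lane, with series or with the left-out libraries included. Between organs, 6 of 10 members were higher in STM without STM 0 h replicates 1 and 3, where Pnlip turned to -0.10 and Prss2 to -1.04. For pgWAT against psWAT 10 were called, 2 with the depots alone and 1 to 10 with replicates left out; with replicates left out Cpa1 ran from -4.16 to 2.88 and Cela3b from -5.05 to 2.32, turning without replicate 1 of every group, and Cpa1 turned to 0.92 without psWAT 12 h replicate 1. For iBAT against the white fats 8 were called, 5 with DESeq2, 5 to 9 with replicates left out, and 1 with lane 8 alone, where Cpa1 turned to -2.49, Cela2a to -2.11, Cela3b to -3.61, Pnlip to -1.75, Prss2 to -2.92, Ctrb1 to -2.30, Cel to -0.37 and Reg1 to -2.17. Beyond the libraries and covariates named, the cause was not tested. Replicate numbers did not pair samples within an organ (mean correlation of same-numbered deviations -0.071 to 0.156, with no organ above 0.1 in every pair), and with them as a replicate block 4 members were called in the STM joint test (Dmbt1 in place of Pnlip), 6 in the STM contrasts, 4 in the BRN contrasts and 1 in the other organs (Cela1 in OB, in place of Cela1 in iBAT). With animal as a replicate block, 9 were called for pgWAT against psWAT. Lane could not be fitted as a covariate in iBAT. Depth limits the low organs, where 3 counts equal up to 0.985 CPM.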
